A study of Xenopus laevis with 27 samples.

Results

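The parvalbumin-like oncomodulin family was followed in regenerating tails of the frog Xenopus laevis over 9 times after amputation. Its members were the genes of the deposited count table whose symbol begins with ocm4, or is ocm or pvalb, with the suffix .L or .S. This rule matched 18 of 29776 genes, namely 16 ocm4 copies (10 with .L and 6 with .S) and 2 pvalb genes, while 0 genes carried the plain symbol ocm. The family was chosen by its measured changes over time in these same libraries, with ocm4.9.L and ocm4.2.S as the copies singled out. All changes of the members against 0 mpa are therefore given as descriptions. Where test calls of members are named or counted, they are not read as support.

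All libraries came from tails labelled as amputated. No uncut tail was among the groups, so time after the cut and the age of the embryos cannot be told apart. Time after the cut is given as minutes (mpa: 0, 30, 60 and 90), hours (hpa: 3 and 6) or days (dpa: 1, 3 and 7), and each of the 9 times had libraries A, B and C (n = 3). Each library held total RNA pooled from 20 embryos at a stage that the labels call regenerative, so variation between animals is averaged within a library. The labels give no genotype and do not say whether the triplicates came from separate clutches, so all errors measure the spread between these libraries, which may be technical.

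Parvalbumins are small calcium-binding proteins of the EF-hand type, named after the helix-loop-helix fold that holds the calcium ion. In the fast skeletal muscle of fish and amphibians they are abundant in the cytosol, where they take up calcium after a contraction and so speed relaxation. Oncomodulin is the beta form of parvalbumin; in mammals it is best known from the outer hair cells of the inner ear, and in mice it has also been described as a product of myeloid cells that promotes axon regrowth. Xenopus laevis carries an ancient genome duplication, and .L and .S mark the copies on its long and short subgenomes.

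Most libraries (24 of 27) had a total of 4186706 to 6332675 counts, and the shallow ones were 7 dpa C with 19187, 90 mpa C with 367958 and 6 hpa C with 1207557. A read was found for 17532 genes in 1 dpa B and 19983 in 3 dpa B, fewer than in any other of these 24 libraries. These 5 libraries are referred to below as the 5 doubted libraries. Levels are CPM, that is reads of a gene per 1000000 reads of the library, with library totals adjusted by edgeR's TMM factors. The tails held high levels of skeletal muscle markers, 33 genes that summed to a mean of 149240 CPM at 0 mpa. Notochord markers, 8 genes, summed to a mean of 8987 CPM, mostly from the collagen genes col2a1.L and col2a1.S (50288 and 64366 reads at 0 mpa). The other notochord genes were low at 0 mpa, such as shh.L with 339 reads.

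Reads of the family went mainly to a few copies. Over all libraries ocm4.5.S took 37.6% of the family's reads, ocm4.1.L 18.1%, ocm4.10.L 15.2% and ocm4.2.S 7.61%, and the first 3 of these made up 70.9% together. The other 12 ocm4 copies took between 0.457% (ocm4.4.L) and 3.59% (ocm4.3.S) each. These are shares of reads, not of molecules, since the sources used here give no transcript lengths. The copies are similar in sequence, and how reads that match several copies were counted is not given either, so the values of single copies are less certain than their sum.

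The pvalb genes were close to absent. pvalb.L had 23 reads in all 27 libraries together, of which 13 lay in 90 mpa B and 7 in 0 mpa B. pvalb.S had 41 reads, 36 of them in 3 dpa B and 5 in 7 dpa A. Both failed the filter on low counts, whereas all 16 ocm4 copies passed it. The sum of the family is thus almost wholly the sum of ocm4.

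The summed level of the 18 members was highest at 0 mpa and lowest at 7 dpa. At 0 mpa it was 3463, 8003 and 2938 CPM in libraries A, B and C. Library B stood apart there, and it was also the highest of the 3 in summed skeletal muscle markers (197350 CPM, against 115280 in A and 135080 in C). In that library 14 of 16 ocm4 copies had their highest level of the 3, and the share of all genes highest there is not given.

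Between 30 mpa and 6 hpa the sum lay at a lower and rather even level. It was 2822, 2339 and 1814 CPM at 30 mpa, 2651, 1935 and 2454 at 60 mpa, and 2139, 2000 and 3257 at 90 mpa. At 3 hpa it was 1768, 1505 and 2082 CPM, and at 6 hpa 2856, 2172 and 2533. Every library of these times lay below every library of 0 mpa, except 90 mpa C, whose 1078 family reads came from the shallow total above.

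From 1 dpa on the sum was lower again at each time. It was 1430, 724 and 968 CPM at 1 dpa, 237, 382 and 308 at 3 dpa, and 52.1, 34.2 and 104 at 7 dpa. The last value, from 7 dpa C, rests on 6 reads, with a 95% exact Poisson interval of 2.20 to 13.1 reads that covers counting error only. No library of these 3 times overlapped with those of the time before it.

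**Figure D1:**
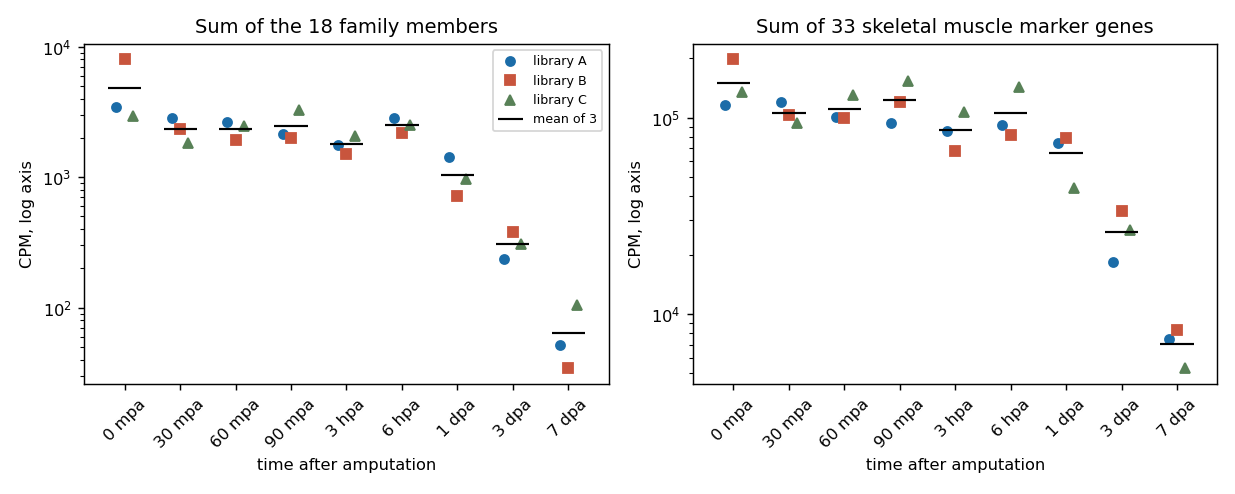
Summed CPM of the 18 family members (left) and of 33 skeletal muscle marker genes (right) in each library, by time after amputation, on log axes. Each symbol is 1 library and the bars are means of 3; the family mean goes from 4801 CPM at 0 mpa to 63.4 at 7 dpa, and 0 mpa B is the highest library in both panels.

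In order of their means, the times ran from 0 mpa (4801 ± 2786 CPM, SD, n = 3) over 6 hpa (2520 ± 342), 90 mpa (2465 ± 689), 60 mpa (2347 ± 370), 30 mpa (2325 ± 504) and 3 hpa (1785 ± 289) to 1 dpa (1041 ± 359), 3 dpa (309 ± 72.6) and 7 dpa (63.4 ± 36.3). Among these neighbours, the libraries of 6 hpa, 90 mpa, 60 mpa, 30 mpa and 3 hpa overlapped each with the next. The fitted log2 fold change of the sum against 0 mpa was -1.05 ± 0.37 (SE) at 30 mpa. The next times gave -1.03 ± 0.37 (60 mpa), -0.96 ± 0.37 (90 mpa), -1.43 ± 0.37 (3 hpa) and -0.93 ± 0.37 (6 hpa). At 1 dpa it was -2.21 ± 0.38, at 3 dpa -3.96 ± 0.41 and at 7 dpa -6.63 ± 0.50, a level 99.0-fold lower.

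The size of the early differences rested on library 0 mpa B. Without it the log2 fold changes of the 3 later minute times were -0.46 ± 0.39 (30 mpa), -0.45 ± 0.39 (60 mpa) and -0.38 ± 0.40 (90 mpa). Those of the hours were -0.84 ± 0.39 (3 hpa) and -0.34 ± 0.40 (6 hpa). Except at 3 hpa, these values were about the size of their SE. The values of the days stayed large without 0 mpa B, at -1.62 ± 0.39 for 1 dpa, -3.38 ± 0.41 for 3 dpa and -6.04 ± 0.49 for 7 dpa. All these comparisons share the 0 mpa libraries.

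ocm4.5.S, the copy with the most reads, was measured at 1418, 2769 and 1031 CPM at 0 mpa. At 1 dpa it was at 572, 233 and 363 CPM, at 3 dpa at 67.9, 59.3 and 77.9, and at 7 dpa at 15.4, 8.70 and 86.7, the last from 5 reads. The libraries of each of these days lay below all those of 0 mpa. Its log2 fold change was -2.16 ± 0.44 at 1 dpa, -4.67 ± 0.49 at 3 dpa and -6.89 ± 0.62 at 7 dpa, or -6.29 at 7 dpa without library B of that time. At the earlier times its level was between 239 CPM, in the shallow library 90 mpa C, and 1180 CPM in 30 mpa A.

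ocm4.1.L was at 501, 1695 and 491 CPM at 0 mpa, so that A and C nearly matched and B was the high library. At 1 dpa it was at 234, 156 and 164 CPM and at 3 dpa at 34.7, 135 and 54.2. At 7 dpa libraries A and B held 7.85 and 5.80 CPM and library C no read. Its log2 fold change was -2.28 ± 0.44, -3.59 ± 0.46 and -7.06 ± 0.62 at these 3 days, and no library of them reached the level of 0 mpa. Without 0 mpa B these values were -1.42, which was no longer called lower, -2.74 and -6.20, and without 3 dpa B the value at 3 dpa was -4.38.

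ocm4.10.L was at 546, 1194 and 454 CPM at 0 mpa. It was at 226, 116 and 147 CPM at 1 dpa, at 60.2, 57.8 and 87.9 at 3 dpa, and at 7.99, 5.80 and 17.3 at 7 dpa, the last from 1 read. The groups did not overlap, and the log2 fold change was -2.16 ± 0.40, -3.41 ± 0.43 and -6.68 ± 0.57. Its highest single value, 1257 CPM, was that of 90 mpa C.

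ocm4.2.S was at 268, 819 and 237 CPM at 0 mpa. It was at 68.5, 27.8 and 54.1 CPM at 1 dpa and at 11.8, 18.3 and 5.30 at 3 dpa. At 7 dpa it had 16, 3 and 0 reads, or 2.28, 0.435 and 0 CPM. Its log2 fold change was -3.13 ± 0.57 at 1 dpa, -5.22 ± 0.64 at 3 dpa and -8.32 ± 0.88 at 7 dpa. At 1 dpa this was the largest fall of the 16 copies, with libraries that lay wholly below those of 0 mpa. Without 0 mpa B the 3 values were -2.33, -4.42 and -7.51. At 7 dpa the value was -9.90 without library A and -7.60 without library B of that time.

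ocm4.9.L was a copy of lower level, at 72.1, 159 and 81.2 CPM at 0 mpa. It was at 33.2, 20.9 and 17.5 CPM at 1 dpa and at 6.54, 8.19 and 7.06 at 3 dpa, where the 3 libraries lay close together. At 7 dpa it had 2, 2 and 0 reads. Its log2 fold change was -2.12 ± 0.42 at 1 dpa, -3.84 ± 0.46 at 3 dpa and -8.37 ± 0.75 at 7 dpa, the lowest of all copies at that time and one that rests on 4 reads.

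The other 11 ocm4 copies were lower at 3 and 7 dpa than at 0 mpa in every library, but differed at the times between. What share of all genes was lower in this way is not given here, and the family was chosen by its changes. At 90 mpa ocm4.3.S had a higher mean (178 ± 183 CPM) than at 0 mpa (144 ± 63.6 CPM), with overlapping libraries. That mean rested on the shallow library 90 mpa C, at 387 CPM from 128 reads, while 90 mpa A and B were at 41.6 and 107 CPM. The mean of ocm4.4.S was 25.1 ± 6.44 CPM at 6 hpa and 31.8 ± 9.36 CPM at 1 dpa, also with overlap, where the family sum was lower at 1 dpa. Their mean levels at 0 mpa ranged from 20.8 CPM (ocm4.4.L) to 177 CPM (ocm4.6.S), and at 7 dpa each had between 5 (ocm4.3.L) and 40 reads (ocm4.5.L) in the 3 libraries together. At 3 dpa their log2 fold changes ran from -5.34 ± 0.92 (ocm4.7.L) to -2.41 ± 0.48 (ocm4.4.S). At 7 dpa they ran from -7.38 ± 0.98 (ocm4.2.L) to -3.91 ± 0.88 (ocm4.4.L).

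**Figure D2:**
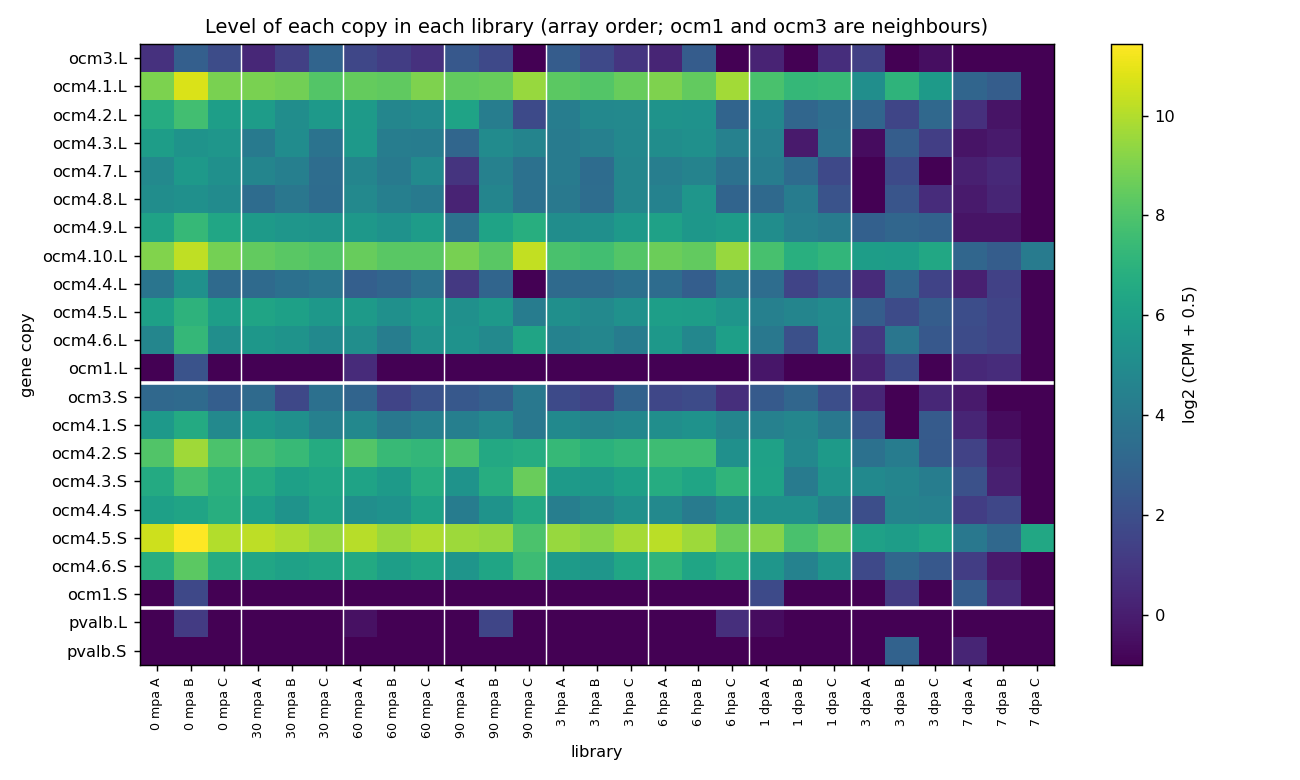
Level of each copy in each library as log2 (CPM + 0.5), with copies in the order in which they lie along the L and the S chromosome, the neighbouring genes ocm1 and ocm3 at the ends of each array, and the 2 pvalb genes at the bottom. White lines part the times and the arrays; ocm4.5.S, ocm4.1.L and ocm4.10.L are the brightest lines up to 1 dpa, and all 16 ocm4 copies are darker at 3 and 7 dpa than at 0 mpa.

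Copies called lower by edgeR's quasi-likelihood test (Benjamini-Hochberg adjusted p under 0.05 over 22268 genes) were counted beside the share of all genes so called, and nothing is read from these counts, since the family was selected on the same contrasts. At 30 mpa 0 of 16 copies were called lower, beside 0% of all genes tested, and at 60 mpa 0 of 16, beside 0.00449%. With no adjustment 7 and 9 copies had a p under 0.05 at these 2 times, and DESeq2 called 0 at both. For neither measure is the share of all genes given here. At 90 mpa 1 copy was called (ocm4.5.S; background 0.754%), at 3 hpa 7 copies (0.31%) and at 6 hpa 1 copy (ocm4.4.S; 0.328%). At 3 hpa the count was 0 without 0 mpa B and 0 without 3 hpa B, and between 1 and 3 without either of the other 3 hpa libraries. The call at 90 mpa was lost without 0 mpa B, and that at 6 hpa without any single 6 hpa library.

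At 1 dpa 8 of 16 copies were called lower (background 1.58%), at 3 dpa all 16 (4.98%) and at 7 dpa all 16 (5.31%). The 1 dpa count fell to 1 when all B libraries were left out. No copy was called higher at any time, beside 2.99%, 4.24% and 2.63% of all genes called higher at 1, 3 and 7 dpa. Without adjustment all 16 copies had a p under 0.05 at 1 dpa, each with a lower level, and DESeq2 called 11 of them. Shares of all genes are not given here for these counts. The median log2 fold change of the 16 copies was -2.09 at 1 dpa, -4.14 at 3 dpa and -6.78 at 7 dpa, beside medians of -0.01, 0.05 and -0.01 over all genes tested.

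The share of each copy in the ocm4 reads was set beside its level. In the 16 libraries from 0 mpa to 6 hpa other than 90 mpa C and 6 hpa C, ocm4.5.S held 34.6% to 41.8% of ocm4 reads (median 39.6%). In the same libraries ocm4.1.L held 13.6% to 21.2%, ocm4.10.L 12.5% to 22.0% and ocm4.2.S 4.55% to 10.8%. ocm4.9.L held 0.572% to 3.65%, and the widest relative range was that of ocm4.8.L, 0.0312% to 2.14%.

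ocm4.5.S was the copy with the most reads in 23 of 27 libraries. The exceptions were 3 dpa B and 6 hpa C, where ocm4.1.L led with 36.0% and 33.3%, and 3 dpa C and 90 mpa C, where ocm4.10.L led with 28.5% and 38.6%. Of these 4 libraries, 3 are among the 5 doubted libraries.

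**Figure D3:**
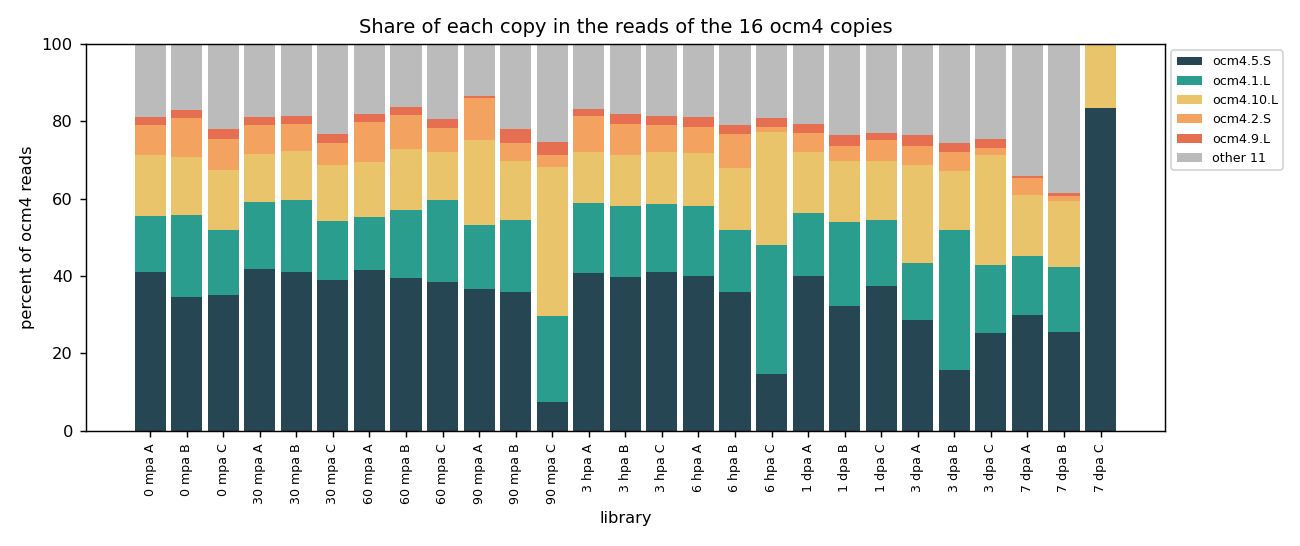
Share of each ocm4 copy in the ocm4 reads of each library, in percent, for the 5 copies described singly and the other 11 together. Bars are libraries in order of time; ocm4.5.S leads in 23 of 27 libraries, its share is low in 90 mpa C, 6 hpa C and 3 dpa B, and the bar of 7 dpa C holds 6 reads.

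Whether the balance of the subgenomes differed between the minutes (0 to 90 mpa) and the days (1 to 7 dpa) was asked of the log2 ratio of L to S reads, each sum with 0.5 reads added. Its mean was -0.257 ± 0.461 (SD, n = 12 libraries) in the minutes and -0.0796 ± 0.801 (n = 9) in the days. The difference of 0.177 did not pass a two-sided exact permutation test over libraries (p = 0.544, adjusted p = 0.544 over 2 ratios, 293930 arrangements). Without the shallow libraries 90 mpa C and 7 dpa C the difference was 0.528 (permutation p = 0.00086), and without the 5 doubted libraries it was 0.436 (permutation p = 0.00444). Without the 3 dpa libraries it was -0.0659 (exact permutation p = 0.854). Each set pools several times, and the ratio is made of the counts by which the family was chosen. Nothing is therefore concluded from these p-values.

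The L copies held 39.2% to 46.8% of ocm4 reads in the 16 early libraries named above. They held 68.7% in 90 mpa C and 71.4% in 6 hpa C, while in the days they held 43.1%, 49.7% and 44.1% at 1 dpa, 49.8%, 64.4% and 56.5% at 3 dpa, and 49.7%, 62.3% and 16.7% at 7 dpa, the last from 6 reads. Libraries 1 dpa A and 1 dpa C lay inside the early range, and 7 dpa C below it. At 3 dpa the summed L copies were at 118, 242 and 174 CPM and the summed S copies at 119, 133 and 134 CPM. Their log2 fold changes were -3.60 ± 0.42 for L and -4.36 ± 0.44 for S at 3 dpa, and -6.54 ± 0.52 and -6.86 ± 0.54 at 7 dpa.

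The log2 ratio of pvalb to ocm4 reads, with 0.5 reads added to each, was 3.85 higher in the days than in the minutes (-9.60 ± 3.63, n = 9, against -13.4 ± 1.71, n = 12). Since most libraries had no pvalb read, this value is set largely by the added 0.5 reads over a falling number of ocm4 reads, and since the fall of ocm4 was behind the choice of the family it is given with no p. It shows no higher level of pvalb.

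In the v10.1 assembly's gene table from RefSeq, where all 18 members were found, the ocm4 copies form 1 array on each of the chromosomes 9_10L and 9_10S, with no other gene inside it. Each array lies between ocm3 and ocm1. From ocm3.L on, the L array runs ocm4.1.L, ocm4.2.L, ocm4.3.L, ocm4.7.L, ocm4.8.L, ocm4.9.L, ocm4.10.L, ocm4.4.L, ocm4.5.L and ocm4.6.L, and the S array runs from ocm4.1.S to ocm4.6.S in the order of their numbers. The span of ocm4.1.S contains those of ocm4.2.S, ocm4.3.S and ocm4.4.S, so reads of these 4 genes may not be fully told apart.

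The 3 L copies next to ocm1.L, ocm4.4.L, ocm4.5.L and ocm4.6.L, had the smallest falls of the 10 L copies at 7 dpa, with log2 fold changes of -3.91 ± 0.88, -4.93 ± 0.51 and -4.67 ± 0.88. The other 7 L copies lay between -8.37 ± 0.75 (ocm4.9.L) and -5.72 ± 1.09 (ocm4.7.L). These 3 copies were singled out after their values were seen, so the difference is a description.

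As a share of L reads they made up 27.4% in 7 dpa A (49 of 179 reads, 95% Wilson interval 21.4% to 34.3%) and 33.3% in 7 dpa B (49 of 147 reads, 26.2% to 41.3%). In the 24 libraries of the earlier times their share was 4.18% to 15.9%, with a median of 8.94%. Library 7 dpa C had 1 L read, which was not from these copies. The intervals cover counting error only.

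**Figure D4:**
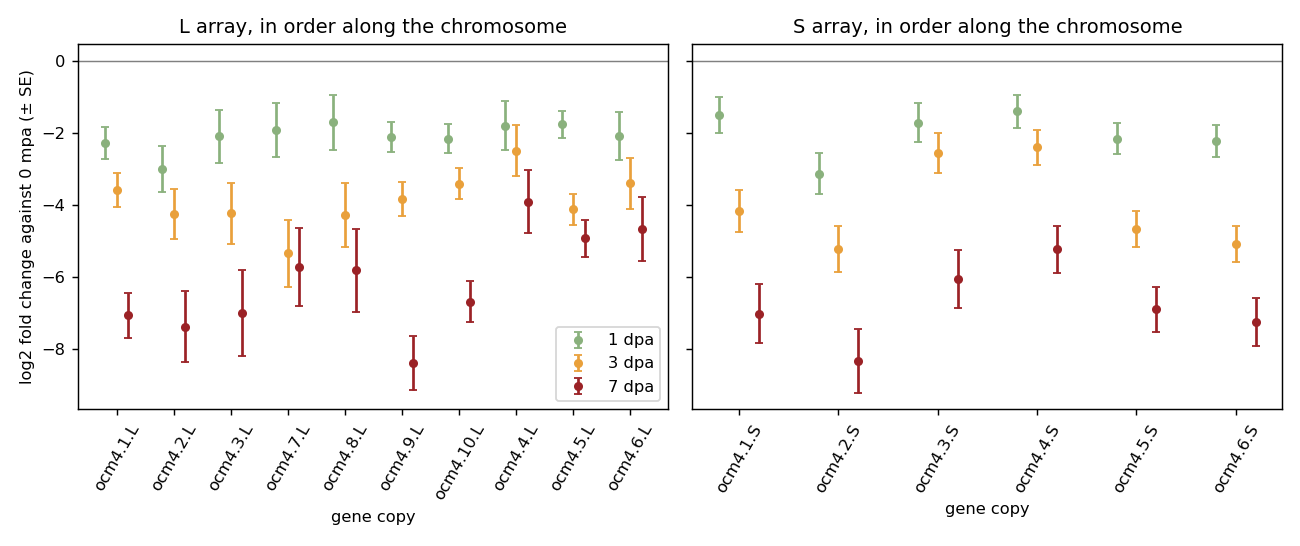
Fitted log2 fold change against 0 mpa (± SE) of each ocm4 copy at 1, 3 and 7 dpa, in the order of the copies along the L (left) and S (right) chromosome, with n = 3 libraries per time. All points lie below 0; at 7 dpa ocm4.4.L, ocm4.5.L and ocm4.6.L lie above the other L copies.

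Skeletal muscle genes fell in the same tails. Of 20 tested genes of a fast fibre list (contractile proteins and enzymes typical of fast muscle), 16, 18 and 18 were called lower at 1, 3 and 7 dpa and 0 higher, with a median log2 fold change of -4.75 at 7 dpa. The background shares are those given above for each time. tnni2.L, a fast troponin I that blocks actin and myosin at rest, went from 2387 ± 1268 to 29.6 ± 8.31 CPM (log2 fold change -6.44 ± 0.51, edgeR adjusted p = 1.19e-14). myoz1.S, a protein of the sarcomere's Z-disc, went from 261 ± 156 to 13.0 ± 18.8 CPM (-6.67 ± 0.67, edgeR adjusted p = 2.63e-10). It had 33 reads at 7 dpa, where its SD exceeds its mean. Means of CPM count the shallow 7 dpa C like a deep library, which the fit does not. myoz1.L had 89 reads at 0 mpa and none at 7 dpa, a level at least 32.5-fold lower against a floor of 3 counts over the group.

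Of 30 tested genes of muscle calcium handling, the machinery that releases calcium and pumps it back, 9, 17 and 20 were called lower at 1, 3 and 7 dpa and 0 higher, with a median of -2.32 at 7 dpa. casq1.S, calsequestrin, which stores calcium in the sarcoplasmic reticulum, went from 1419 ± 771 to 37.6 ± 12.9 CPM (-5.48 ± 0.47, edgeR adjusted p = 1.38e-13). ryr3.S, a ryanodine receptor through which that calcium is released, went from 117 ± 71.4 to 2.35 ± 2.06 CPM (-5.05 ± 0.55, edgeR adjusted p = 2.73e-10). ryr3.L went from 37.8 ± 13.5 to 0.242 ± 0.419 CPM (-6.62 ± 1.13, edgeR adjusted p = 0.000122), the latter from 5 reads. Genes of the calcium pump and of calsequestrin stand in both this list and the fast fibre list.

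Of 7 tested slow fibre genes 3, 5 and 4 were called lower at the 3 days and 0 higher, with a median of -3.32 at 7 dpa. tnnc1.S, the troponin C of slow and cardiac muscle, went from 579 ± 162 to 44.3 ± 8.85 CPM at 7 dpa (-3.59 ± 0.45, edgeR adjusted p = 1.32e-08). myoz2.S, another Z-disc protein, went from 266 ± 26.1 to 18.8 ± 17.3 CPM (-3.32 ± 0.39, edgeR adjusted p = 2.62e-09). myl2.L, a regulatory myosin light chain, had a log2 fold change of -3.46 ± 1.07 (edgeR adjusted p = 0.0293), with 8 reads at 7 dpa.

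Most genes on a list of other EF-hand proteins were called neither lower nor higher. Of 26 tested, 0, 1 and 1 were called lower at 1, 3 and 7 dpa and 4, 2 and 1 higher, and the median log2 fold change was 0.04 at 7 dpa. capn3.L, the muscle protease calpain 3, was the gene called lower at 7 dpa, from 51.5 ± 24.9 to 0.579 ± 0.768 CPM (-5.86 ± 0.80, edgeR adjusted p = 3.61e-07). s100a10.L, an annexin-binding S100 protein, rose at 1 dpa from 80.3 ± 12.8 to 516 ± 102 CPM (2.68 ± 0.40, edgeR adjusted p = 2.46e-06). s100a10.S rose from 242 ± 6.91 to 893 ± 215 CPM (1.88 ± 0.38, edgeR adjusted p = 0.000801).

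The family was set beside all 27 tested genes of the fast and slow fibre lists. At 7 dpa these ranged from -8.03 (myoz1.L, with no read at that time, so that its fitted value is not a bound) to -0.64 (pygm.L) in log2 fold change, with a median of -4.34. Of the 16 ocm4 copies 15 lay below that median, 2 lay below all 27 fibre genes and 0 lay above all of them. With both sets held to at least 100 CPM at 0 mpa, a choice made after seeing the data, 8 copies stood beside 20 fibre genes with a median of -4.66, and 8 of the 8 lay below that median and 7 below all 20. The copies may share reads, so they are not independent points. The family sum, which does not depend on how reads were split between copies, was at -6.63. Of the same 20 fibre genes 1 lay below it (myoz1.S, -6.67). No test was made of these differences, because the family was chosen by its changes in these libraries.

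**Figure D5:**
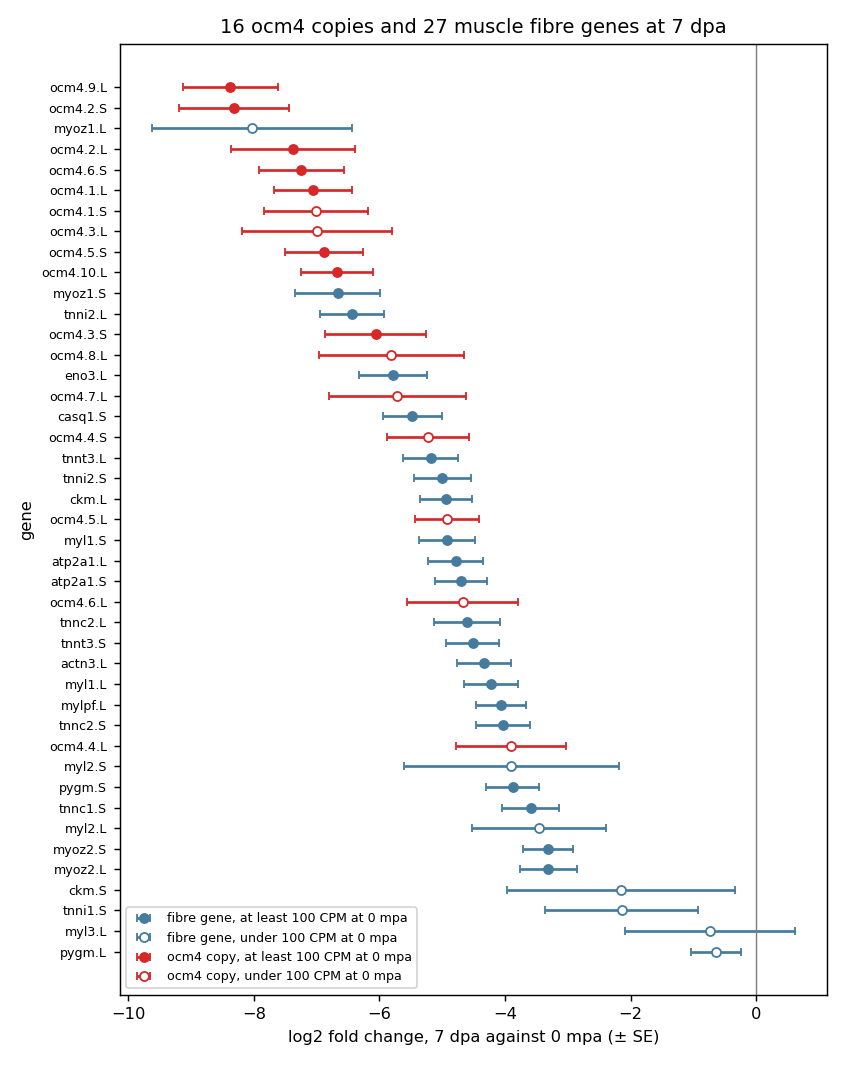
Fitted log2 fold change at 7 dpa against 0 mpa (± SE) of the 16 ocm4 copies (red) and of 27 fast or slow fibre genes (blue), in order of size, with open symbols for genes under 100 CPM at 0 mpa. Among the lowest are ocm4.9.L (-8.37), ocm4.2.S (-8.32) and the fibre gene myoz1.L, and ocm4.4.L (-3.91) lies among the fibre genes.

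Per 1000 CPM of summed muscle markers, the family stood at 30.0, 40.6 and 21.7 CPM at 0 mpa and at 16.7 to 40.6 CPM in the 18 libraries up to 6 hpa. It stood at 9.18 to 22.1 CPM at 1 dpa, at 12.8, 11.5 and 11.5 CPM at 3 dpa, and at 6.95, 4.12 and 19.6 CPM at 7 dpa, the last from 6 family reads. The ranges of 3 dpa and of 0 mpa to 6 hpa did not overlap, while 7 dpa C lay inside the early range. In these bulk libraries fewer muscle cells and less RNA per cell cannot be told apart.

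The summed levels of marker lists of other cell types, those in which mammalian oncomodulin is known and those the tail holds, are given beside the family with no test of their courses. Notochord markers, 8 genes, had mean sums of 8987 CPM (0 mpa), 9420 CPM (6 hpa), 8320 CPM (1 dpa), 5261 CPM (3 dpa) and 4370 CPM (7 dpa). The libraries of 1 dpa overlapped with those of 0 mpa. This sum is mostly reads of col2a1.L and col2a1.S (50288 and 64366 at 0 mpa, 31534 and 42246 at 7 dpa). The other notochord genes had more reads at 7 dpa than at 0 mpa, such as shh.L (339 at 0 mpa, 2559 at 7 dpa) and not.S (0 and 809). Hair cell markers, 9 genes, summed to 18.8 to 27.4 CPM at 0 mpa and 0 to 26.6 CPM at 7 dpa, with the 0 in 7 dpa C. Myeloid markers, 12 genes, had a mean sum of 231 CPM at 0 mpa, 698 at 6 hpa and 179 at 7 dpa. Within this list mpo.L had 2164 reads at 0 mpa and 1140 at 7 dpa, and mpo.S 168 and 39. The other myeloid genes had more reads at 7 dpa than at 0 mpa, such as ctss.S (93 at 0 mpa, 371 at 7 dpa) and spi1.L (41 and 193). Epidermis markers, 10 genes, had a mean of 1351 CPM at 0 mpa, 4276 at 6 hpa and 1454 at 7 dpa, and neuron markers, 18 genes, of 331, 363 and 188 CPM. Skeletal muscle markers had a mean of 149240, 105570 and 7033 CPM at these times. The means at 7 dpa include the shallow library 7 dpa C. In 7 dpa A, B and C notochord markers stood at 5629, 5573 and 1907 CPM, and epidermis markers at 1851, 2129 and 381 CPM. At 0 mpa epidermis markers stood at 1200 to 1437 CPM. Within the neuron list tubb2b.L had 119 reads at 0 mpa and 543 at 7 dpa, and tubb2b.S 770 and 958. The other neuron genes had fewer reads at 7 dpa than at 0 mpa. The part of cell type make-up in the family's levels was not tested.

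The genes whose 9 time means followed the family sum most closely, among 11832 candidates, were tmem38a.S (Pearson's r = 0.9971), which codes for a potassium channel of the sarcoplasmic reticulum, and tnnc2.S (r = 0.9968), a fast troponin C. They were followed by tnnt3.L (r = 0.9952), a fast troponin T, actc1.S (r = 0.9951), a muscle actin, and gamt.L (r = 0.9948), an enzyme of creatine synthesis. These r are over 9 time means that share their libraries, and are given as a description. Pearson's r does not measure the size of a fall. At 7 dpa the log2 fold changes were -3.82 (tmem38a.S), -4.03 (tnnc2.S), -5.19 (tnnt3.L), -4.47 (actc1.S) and -3.09 (gamt.L), beside -6.63 for the family sum. Of these 5 genes 1 remained among the 5 most alike without the 5 doubted libraries, with r still between 0.9701 and 0.9973.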

How the data were processed

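RNA was sequenced from 27 libraries of amputated tails. Per the labels' protocols, libraries were made from 100 ng of total RNA with a Lexogen SENSE kit and sequenced as read pairs of 76 bases. The authors deposited whole-number counts per gene, on which all results rest, and a table of normalized signal for 25 libraries, used for a check alone: within each library it was proportional to the deposited counts. Tools named in the submitters' processing notes are R 4.1.0, DESeq2 1.32.0, HTSeq 0.6.1p1 and STAR 2.7.9a. For the genome build, annotation, strand setting and treatment of reads with several matches, nothing is given in the sources used here. RefSeq's table of assembly v10.1 served for names and gene order.

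Counts were fitted in R 4.3.3 using edgeR 4.0.16 and its robust quasi-likelihood test, with TMM scaling, filterByExpr by time (22268 genes kept, 7508 dropped, at least 99.49% of counts kept) and 1 fit over 27 libraries. Adjusted p-values are by Benjamini-Hochberg, per comparison. Fold changes use a prior count of 0.125, and their SE is the fold change over the root of F. For sums, member counts were added before the fit. Ratios were compared by exact permutation over libraries. Total counts ran from 19187 to 6332675, which limits single copies most at 7 dpa.

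Alternatives were DESeq2 1.42.0, its scaling, no filter, a fit of 6 libraries, a replicate block, libraries left out and other pseudocounts. Library letters were not used as pairs in the main fit. Of 108 same-letter pairs, 8 had correlated deviations over 0.1. Pairs of unlike letters were not compared, so whether letters pair the libraries was not settled. The members, gene lists and tests were chosen with earlier results of these data known. Described in full were ocm4.9.L, ocm4.2.S and copies with at least 5% of family reads; from each list, up to 3 genes with the largest called change at 1 to 7 dpa and at least 5 CPM.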

Additional observations from a re-analysis of the deposited data

Results flagged for a closer look

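Examined for single values far from the rest were 2 sets of libraries, the days (9 libraries) and the hours (6 libraries). Both held such a value in the log2 ratio of L to S reads of ocm4. The rule marks about 1 in 20 sets by chance where all values share 1 spread. These sets pool more than 1 time and unlike depths, so that rate cannot be relied on here. In the days, 7 dpa C lay at -1.87, apart from the other 8 libraries, and it rests on 1 L read and 5 S reads. In the hours, 6 hpa C lay at 1.32, with 1656 L reads and 664 S reads, while the other 5 libraries lay between -0.530 and -0.262. Both libraries are shallow, with totals of 19187 and 1207557 counts, and the part of depth in these values was not tested. The libraries of the minutes were not examined by this rule. Among them 90 mpa C lay at 1.14 and the others between -0.631 and -0.185.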

How the results depend on the processing

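Over 47 results, 524 of 582 alternative values kept their direction and their side of the threshold, or moved within the limits set for them. The family sum was below 0 mpa in all 128 alternatives, and 1 of these moved by more than the spread. At 7 dpa the log2 fold change ranged from -7.037 to -5.68 when libraries were left out, the latter without all B libraries. The spread was the larger SD of the log2 level at the 2 times, and 0 mpa B itself widens it. Early values could therefore shrink much and still count as unmoved. At 30 mpa the value went from -1.05 to -0.46 without 0 mpa B. At 6 hpa it went from -0.93 to -0.28 without all B libraries. The number of copies called lower moved at all times from 30 mpa to 1 dpa, with its widest range, 1 to 15, at 1 dpa. How many of all genes were called under each alternative is not given here. With 6 libraries of the 2 times alone it was 2 (30 mpa), 3 (60 mpa), 0 (90 mpa), 11 (3 hpa) and 2 (6 hpa) copies. With no filter on low counts 1 (30 mpa), 1 (60 mpa), 5 (90 mpa), 11 (3 hpa), 4 (6 hpa) and 15 (1 dpa) copies were called. DESeq2 called 2 copies at 90 mpa and 2 at 6 hpa, and its scaling in edgeR 2 at 90 mpa. Leaving out the pair 90 mpa C and 7 dpa C gave counts of 1 (30 mpa), 1 (60 mpa), 0 (90 mpa) and 2 (6 hpa). Without the 5 doubted libraries they were 1 (30 mpa), 3 (60 mpa), 4 (90 mpa) and 0 (6 hpa). The replicate block by library letter gave 3 copies at 90 mpa and 3 at 6 hpa and moved no other count by over 1.5 times. Whether the letters pair the libraries is not known. Leaving out single libraries or all of 1 letter gave 0 copies in each case for 30 mpa, and for the later times 0 to 1 (60 mpa), 0 to 3 (90 mpa), 0 to 5 (3 hpa), 0 to 2 (6 hpa), 1 to 10 (1 dpa), 13 to 16 (3 dpa) and 15 to 16 (7 dpa).

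The L to S difference was 0.5278 with that pair left out and 0.4361 without the 5 doubted libraries, and reversed to -0.0659 without the 3 dpa libraries. Nothing is concluded from the p-values of this ratio, for the reasons given in the Results. The pvalb to ocm4 difference reversed to -0.1951 with 3 and 6 hpa in place of the days. Of the other EF-hand genes, 1 was called lower at 1 dpa with DESeq2's scaling, and 3 at 3 dpa and 3 at 7 dpa without the 5 doubted libraries. The causes of these shifts were not tested. A ratio of ocm to ocm4 and its alternatives were not run, since 0 genes carried that symbol. Depth limits single copies at 7 dpa, where ocm4.9.L has 4 reads, and all values of 7 dpa C.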

Other observations

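The genes that flank the arrays, ocm3 and ocm1, were outside the rule and low throughout. ocm3.L had 45 reads at 0 mpa and none at 7 dpa, a level at least 16.4-fold lower against a floor of 3 counts over the group, and ocm3.S had 101 and 3 reads. ocm1.S, at the other end of its array, had 11 reads at 0 mpa and 46 at 7 dpa, a log2 fold change of 1.69 ± 1.88 that was not called.

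Several ocm4 copies, of L and of S, were low together in 90 mpa A, a library of usual depth. It held 3 reads of ocm4.8.L, 6 of ocm4.7.L, 7 of ocm4.4.L, 36 of ocm4.3.L and 55 of ocm4.9.L. In the 9 libraries from 0 to 60 mpa and in 90 mpa B these copies had 50 to 146, 53 to 205, 26 to 155, 66 to 254 and 151 to 630 reads. Among the S copies, 90 mpa A held 81 reads of ocm4.4.S, 187 of ocm4.3.S and 201 of ocm4.6.S. Each of these was also fewer than in any of those libraries. Other L copies were not low in 90 mpa A, such as ocm4.10.L with 2115 reads and ocm4.2.L with 337. In 3 dpa A ocm4.7.L and ocm4.8.L had no read and ocm4.3.L had 1, while ocm4.9.L had 42. These copies were picked after their values were seen, and no test was made.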
